A study of Mus musculus with 6 samples.

Results

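The genes studied were Trp53, which encodes the transcription factor p53, and 9 of its textbook target genes, 10 genes in all, taken by name and with every probe set of the array whose annotation names 1 of them alone. Such probe sets were found for 8 of the 10 genes, 14 probe sets in all of 45037 on the array: Cdkn1a, Ccng1, Mdm2, Bbc3, Pmaip1, Phlda3, Trp53inp1 and Perp. Trp53 and Bax were not analysed here. The brightest probe set of each gene, by mean signal over the arrays, gave its level, and all 8 genes passed the filter on dim genes, as did 13277 of 18193 genes on the array. None of the 8 lay at the floor of that filter, a log2 signal of 5.37, on any array.

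The 2 lines compared are mouse embryonic stem cells in which all 3 DNA methyltransferase genes, Dnmt1, Dnmt3a and Dnmt3b, are knocked out, and both express a DNMT1 ubiquitously. The deletion line expresses DNMT1 without its first 602 amino acids, and the full-length line expresses the whole protein. At day 0 the stem cells grew in 10% FBS with LIF, a factor that keeps them undifferentiated. By day 4 they had spent 1 day in embryoid bodies and 3 days as adherent culture, both without LIF. By day 7 they had spent a further 3 days with 10% KSR and Activin A (10 ng/ml). Each line at each day was 1 array, 6 in all. The labels name no repeated cultures or clones, so line, clone and DNMT1 form cannot be told apart. Loss of LIF, form of culture and time go together at day 4, and medium, time and Activin A at day 7. The source label of the deletion line's day 0 sample describes differentiated cells, and its title, which gives day 0, was used.

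p53 is kept low in unstressed cells by MDM2, a ubiquitin ligase that marks it for destruction, and Mdm2 is itself switched on by p53, which closes a feedback loop. When p53 builds up, it raises genes that halt the cell cycle, genes that start cell death through mitochondria, and genes that return it to rest. Mouse embryonic stem cells express p53, and in mouse fibroblasts loss of Dnmt1 is known to activate it. p53 binds DNA as a tetramer at paired copies of a 10-base consensus.

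Paired copies of that consensus were found in front of Cdkn1a and Ccng1, and a single copy in front of Mdm2, so these are shown first. The windows run from 250 bases before to 50 bases after a RefSeq transcript start (GRCm38.p6), and 8 windows of 5 of the measured genes were on hand. Capitals mark adjoining copies of the p53 consensus with at most 1 mismatch over 20 bases in the Cdkn1a and Ccng1 windows, and 1 copy without mismatch in the Mdm2 stretch. The consensus reads the same on both strands.
Cdkn1a (chr17:29090729-29091028, plus strand): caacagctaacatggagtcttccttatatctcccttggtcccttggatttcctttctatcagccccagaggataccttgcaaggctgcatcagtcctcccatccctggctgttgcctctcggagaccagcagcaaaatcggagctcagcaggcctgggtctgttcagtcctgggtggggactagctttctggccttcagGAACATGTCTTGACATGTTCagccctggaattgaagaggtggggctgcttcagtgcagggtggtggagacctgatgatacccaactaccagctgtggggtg
Ccng1 (chr11:40755237-40755536, minus strand): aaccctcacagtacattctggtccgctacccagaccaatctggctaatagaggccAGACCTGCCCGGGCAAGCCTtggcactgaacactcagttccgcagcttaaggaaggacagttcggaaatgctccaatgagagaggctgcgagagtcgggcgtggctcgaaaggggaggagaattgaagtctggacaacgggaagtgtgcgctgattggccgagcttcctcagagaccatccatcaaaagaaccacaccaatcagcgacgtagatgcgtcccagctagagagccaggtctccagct
Mdm2 (chr10:117710910-117710969, minus strand): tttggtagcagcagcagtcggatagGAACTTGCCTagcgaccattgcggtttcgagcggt
The Cdkn1a element, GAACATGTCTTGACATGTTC, begins 51 bases before the start of an upstream transcript, and the Ccng1 element, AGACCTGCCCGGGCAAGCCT, begins 195 bases before its start. Of 32851 such windows of the mouse genome, 29 held adjoining copies (0.0883%), against 2 of the 8 windows here. The search was chosen after the letters of these windows were seen, so these shares describe them and cannot show an enrichment. A copy without mismatch was held by 8.36% of all windows and by 3 of the 8. The other windows on hand, 1 further window of Cdkn1a, 3 of Bbc3 and 1 of Phlda3, held neither. A match describes letters only, and binding was not measured.

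The arrays themselves differed little in level. Array medians were log2 6.02 to 6.19, and 12571 to 12812 of the measured genes lay above the floor on each array. Dnmt1 lay between 8.37 and 9.65 on the 6 arrays, and since the place of its probes relative to the deleted parts was not examined, this checks nothing about the labels. Of 8 pluripotency markers all lay above the floor on all 6 arrays, and of 7 streak and mesoderm markers with a probe set 3 were measured.

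The arrest gene Cdkn1a encodes p21, an inhibitor of cyclin-dependent kinases. Its log2 levels at days 0, 4 and 7 were 10.55, 10.40 and 11.03 in the deletion line, and 11.37, 11.01 and 10.77 in the full-length line. The full-length line was thus lower at each later day, while the deletion line was highest at day 7, and the ranges of the lines overlapped. A second Cdkn1a probe set read 10.43, 10.28 and 10.99 in the deletion line, and 10.25, 9.82 and 9.58 in the full-length line. Both probe sets gave the same order of days within each line, but they disagreed on the lines: the deletion line was below the full-length line by 0.82 at day 0 in the first and above it by 0.18 in the second. At day 7 it was above it in both, by 0.26 and 1.41.

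Ccng1, which encodes cyclin G1, a partner of the phosphatase PP2A in the regulation of MDM2, had levels of 12.51, 12.80 and 13.37 in the deletion line, and 13.07, 13.24 and 12.92 in the full-length line. The deletion line held both the lowest and the highest array, and its levels were in the order of the days. The other 2 Ccng1 probe sets gave the same sign in all 9 differences between days or lines. They were higher at day 7 than at day 4 by 0.54 and 0.75 in the deletion line, and had differences of -0.40 and -0.29 in the full-length line.

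Mdm2 had levels of 10.97, 10.63 and 11.16 in the deletion line, and 11.43, 11.07 and 10.78 in the full-length line. At the brightest probe sets its course was close to that of Cdkn1a. Pearson's r between them over the 6 arrays was 0.91, a description, since arrays share a line or a day. This r was the highest of all pairs among the studied target genes. The dimmer Cdkn1a probe set has another order of the lines, and its r with Mdm2 was not examined. A second Mdm2 probe set read 10.60, 10.11 and 11.05 in the deletion line, and 11.23, 10.41 and 10.51 in the full-length line, where its day 7 level lay above day 4 by 0.10 instead of below. The dimmest lay under the floor on all 6 arrays.

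The death genes did not share a course. Bbc3 encodes PUMA, which frees the killers of the BCL-2 family from their inhibitors, and had levels of 9.59, 9.16 and 9.62 in the deletion line, and 9.85, 9.25 and 8.94 in the full-length line. Pmaip1 encodes NOXA, an antagonist of the survival protein MCL1, and had levels of 9.14, 10.38 and 9.65 in the deletion line, and 9.56, 10.64 and 10.41 in the full-length line. In both lines Pmaip1 was highest at day 4 and Bbc3 lower at day 4 than at day 0, and r between the 2 genes was -0.80 over the 6 arrays. Each has 1 probe set.

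Phlda3 encodes a PH-domain protein that holds back the kinase AKT. Its levels were 10.53, 10.39 and 10.74 in the deletion line, and 10.99, 11.14 and 10.46 in the full-length line. Trp53inp1, a nuclear protein gene of stress and autophagy, had levels of 12.67, 13.30 and 13.65 in the deletion line, and 13.22, 13.15 and 12.88 in the full-length line. Its lower probe set read 7.75, 8.52 and 8.88 in the deletion line, and 8.42, 8.49 and 7.70 in the full-length line, so in both probe sets the deletion line's levels were in the order of the days and the full-length line's day 7 level was its lowest. Perp encodes a membrane protein of desmosomes and had levels of 9.09, 9.30 and 9.39 in the deletion line, and 8.93, 10.14 and 9.79 in the full-length line.

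**Figure D1:**
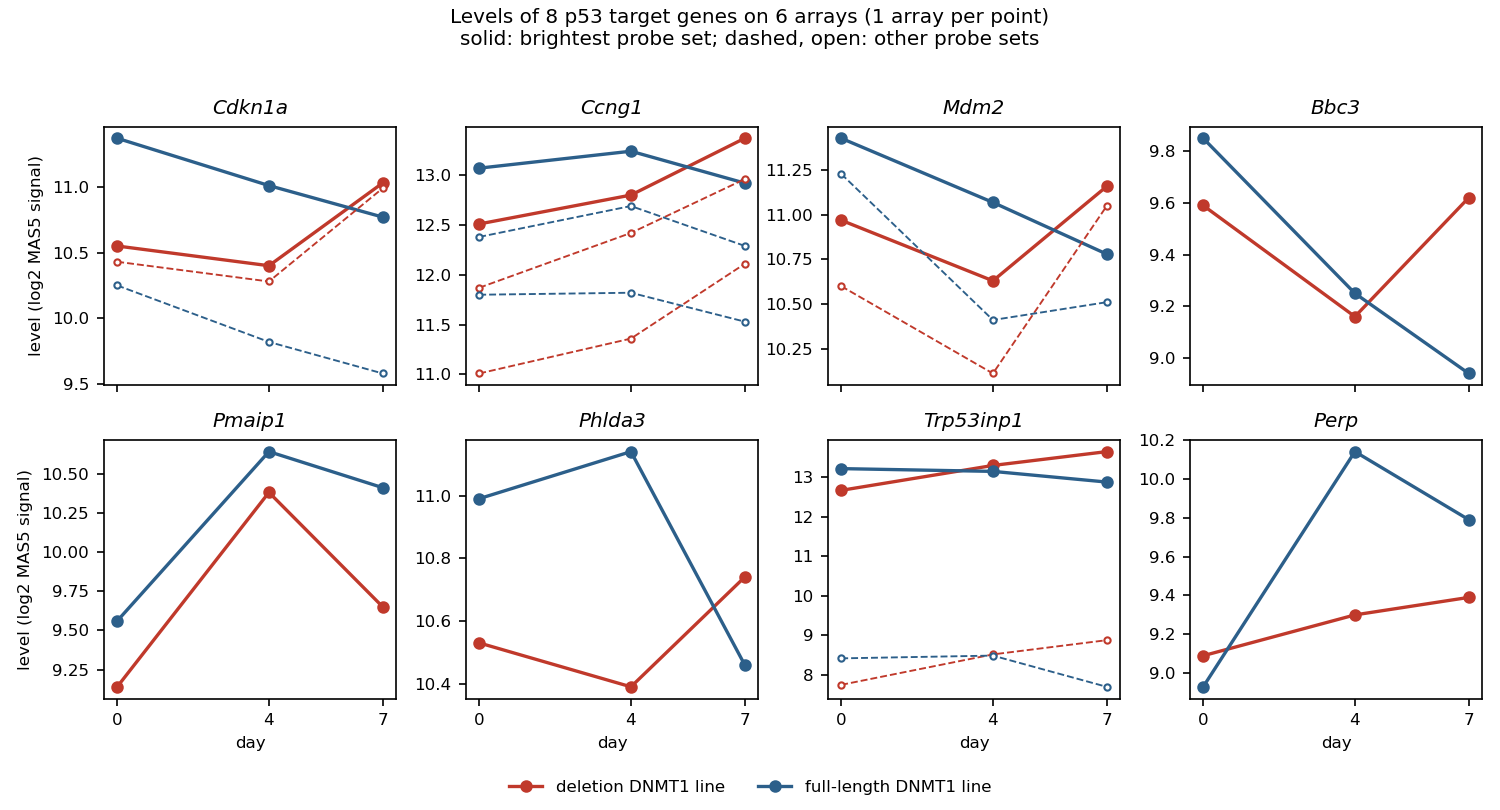
Levels (log2 MAS5 signal) of the 8 p53 target genes against day, 1 array per point, in the deletion line (red) and the full-length line (blue), with solid lines for the brightest probe set and dashed lines for other measured probe sets. In Cdkn1a, Ccng1, Mdm2, Bbc3, Phlda3 and Trp53inp1 the deletion line lies above the full-length line at day 7, as 11.03 against 10.77 for Cdkn1a.

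Day 4 over day 0 sets the culture without LIF against the stem cells. Loss of LIF, embryoid bodies, adherent culture and time go together in it, and their parts were not tested. Pmaip1 rose 2.24-fold over both lines (limma, log2 1.16, SE 0.21, adjusted p = 0.048), with log2 differences of 1.24 in the deletion line and 1.08 in the full-length line. Between single arrays it was at least 2-fold higher in the deletion line, as were 6.24% of all measured genes, and with Perp it was so in the full-length line (8.14% of all). It was the 1 called gene of 8, against 1.58% of the 13277 measured genes called in either direction and 0.881% called higher. The call was lost in all 14 alternatives tried, among them equal array medians, where the adjusted p was 0.052, and every fit with an array left out, with adjusted p from 0.052 to 0.51 over the 14 and log2 from 1.00 to 1.33 (limma).

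Perp missed the threshold with a log2 difference of 0.71 (SE 0.28, limma adjusted p = 0.27), and its difference was 0.21 in the deletion line and 1.21 in the full-length line. Bbc3 had a difference of -0.52, with -0.43 in the deletion line and -0.60 in the full-length line (limma adjusted p = 0.43). Mdm2 had -0.34 in the deletion line and -0.36 in the full-length line, and Cdkn1a -0.15 and -0.36 (limma adjusted p = 0.54 for Mdm2 and 0.71 for Cdkn1a). Mdm2, Cdkn1a and Bbc3 were thus lower on the day 4 array in both lines, unlike Pmaip1. The median over the 8 genes was 0.12, against 0.05 over all measured genes. With 1 array left out the difference ran from 0.32 to 1.10 for Perp, from -0.79 to -0.24 for Bbc3 and from -0.57 to -0.14 for Mdm2.

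Markers of other cell types differed more between days 4 and 0 than most of the 8 genes did. All 10 fibroblast markers had lower levels at day 4, 5 of them called (median log2 -2.69), and their summed signal was 3680 at day 4 against 24600 at day 0 in the deletion line, and 4230 against 10300 in the full-length line. All 8 extraembryonic endoderm markers had higher levels at day 4, 3 of them called (median 1.57), as had 7 of 8 trophoblast markers, 2 of them called (median 0.71). The 2 called trophoblast markers were the keratin genes Krt8 and Krt18. Elf5 and Cdx2 lay at or near the floor, between 5.37 and 5.59, on the day 0 and day 4 arrays. Between single arrays 5 of the 8 trophoblast markers were higher at day 4 in the deletion line and 7 in the full-length line. All 8 pluripotency markers had lower levels, 2 of them called (median -0.62). Of 7 measured blood and myeloid markers, 2 were called higher and 2 lower (median -0.64). The 2 lower were Lyz1 (log2 -6.115) and Lyz2 (-4.70), and the 2 higher Hbb-bh1 (2.76) and Hba-x (2.28). The part of these cell type markers in the day 4 differences of the p53 target genes was not tested.

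The line difference over the 3 days was called for 0 of the 8 genes, as for 0.0% of all measured genes, while 1624 of the 13277 (12.2%) and 1 of the 8 had an unadjusted p under 0.05 in limma. That gene was Pmaip1, at log2 -0.48 (SE 0.18, adjusted p = 0.35), lower in the deletion line at each of the 3 days. Cdkn1a had -0.39 at its brightest probe set and 0.68 at the other, so its line difference has no settled sign. The 95% interval of the Cdkn1a difference at its brightest probe set ran from -0.90 to 0.12, and with 1 array left out the difference ran from -0.72 to -0.18.

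Day 7 over day 4 and day 7 over day 0 also gave 0 called genes of the 8, against 0.0151% and 1.03% of all measured genes, with limma adjusted p from 0.44 to 0.98 and from 0.17 to 0.94. For day 7 over day 4, 2 genes were called higher and 0 lower among all measured genes, or 27 higher and 14 lower with arrays scaled to equal medians. At an unadjusted p under 0.05 there were 0 of the 8 genes for day 7 over day 4 (11.9% of all) and 1, Pmaip1, for day 7 over day 0 (17.3% of all). Pmaip1 had a log2 difference of 0.68 between days 7 and 0 (SE 0.21, limma adjusted p = 0.17).

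**Figure D2:**
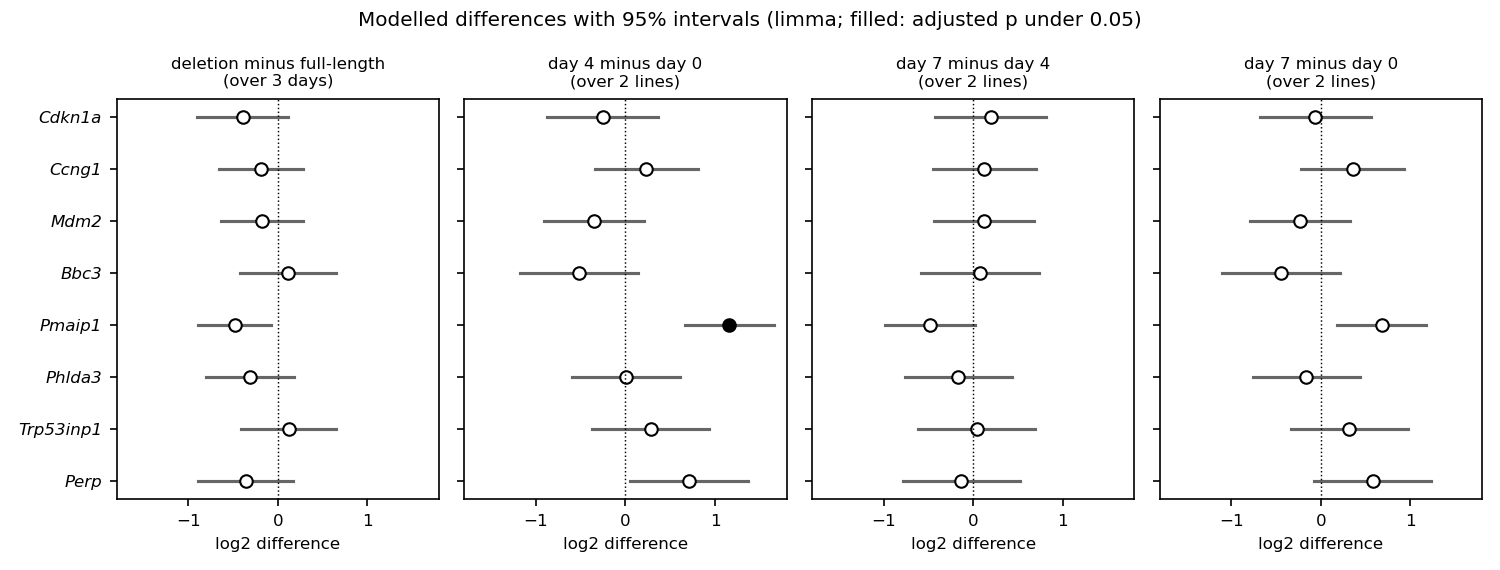
Log2 differences of the 8 genes in the additive limma fit, with 95% intervals, for the deletion line minus the full-length line and for the 3 pairs of days. The filled point is the called one, Pmaip1 for day 4 minus day 0 at 1.16, and the intervals of Pmaip1 for the line and for day 7 minus day 0 and of Perp for day 4 minus day 0 also leave out 0.

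The mean over the lines hid opposite differences between days 7 and 4, the days on either side of the change to Activin A. In 7 of the 8 genes the day 7 array was higher than the day 4 array in the deletion line and lower in the full-length line, against 18.3% of all measured genes. The reverse held for 0 of the 8 and for 22.0% of all. Pmaip1, the other gene, was lower at day 7 in both lines (27.8% of all), with log2 differences of -0.73 in the deletion line and -0.23 in the full-length line, and 0 of the 8 were higher in both (28.3% of all). With 1 array per line and day this difference between the lines could not be tested. In the limma fit it is part of the spread by which the differences between days are judged.

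Cdkn1a was 1.55-fold higher at day 7 than at day 4 in the deletion line and 1.18-fold lower in the full-length line. The log2 differences of Ccng1 were 0.57 in the deletion line and -0.32 in the full-length line, those of Mdm2 0.53 and -0.29, and those of Bbc3 0.46 and -0.31. Phlda3 had 0.35 in the deletion line and -0.68 in the full-length line, Trp53inp1 0.35 and -0.27, and Perp 0.09 and -0.35. Of the 8 genes, 0 had opposite differences of at least 1.5-fold in each line (1.82% of all measured genes).

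Subtracting the full-length line's difference from the deletion line's gave 1.03 for Phlda3, 0.89 for Ccng1, 0.87 for Cdkn1a, 0.82 for Mdm2, 0.77 for Bbc3, 0.62 for Trp53inp1, 0.44 for Perp and -0.50 for Pmaip1. The gap was at least 0.5 in 6 of the 8 genes and in 17.3% of all measured genes. The median gap was 0.80 over the 8 genes, against -0.05 over all measured genes. Of the other probe sets that were measured, those of Cdkn1a, Ccng1 and Trp53inp1 kept the opposite signs and that of Mdm2 did not, so the count was 6 with second-brightest probe sets and stayed at 7 with arrays scaled to equal medians (13.4% of all), quantile normalized, or with probe sets averaged.

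**Figure D3:**
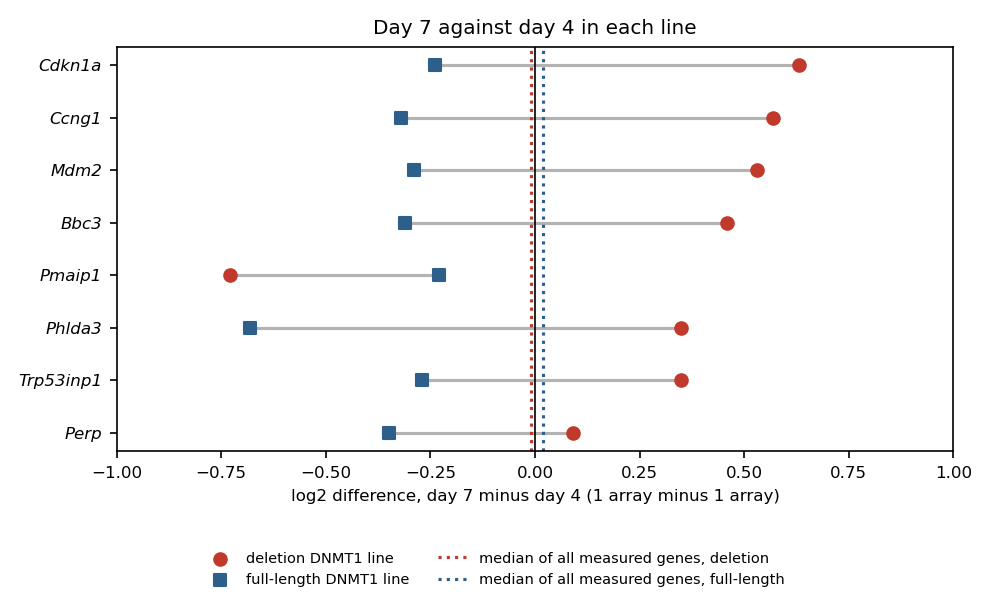
Log2 difference between the day 7 and day 4 arrays for each gene, in the deletion line (red circles) and the full-length line (blue squares), with dotted lines at the medians of all measured genes. Points of 7 genes lie on opposite sides of 0, from 0.63 and -0.24 for Cdkn1a to 0.09 and -0.35 for Perp, and both Pmaip1 points lie below 0.

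Against day 0 the day 7 arrays were again higher in the deletion line and lower in the full-length line for 6 of the 8 genes (18.5% of all), and Perp and Pmaip1 were higher in both lines (32.8% of all). Both comparisons share the day 7 arrays. Day 7 was the highest of the deletion line's 3 days in 7 genes (34.5% of all) and the lowest of the full-length line's in 6 (28.2% of all). At days 0 and 4 the deletion line was below the full-length line in 7 of the 8 genes each (54.4% and 51.3% of all), with median line differences of -0.46 and -0.44, against -0.05 and -0.02 over all genes. On the day 0 arrays all 10 fibroblast markers were higher in the deletion line (median log2 difference 1.16, summed signal 24600 against 10300) and 6 of 8 pluripotency markers were lower (111000 against 134000). Of 7 measured blood and myeloid markers 4 were higher there and 2 lower (median 0.10), with a summed signal of 10900 against 2750 over all 8. On the day 4 arrays 7 of 8 extraembryonic endoderm markers were higher in the deletion line (4680 against 2510) and 6 of 8 trophoblast markers were lower (11200 against 23100). At day 7 the deletion line was above the full-length line in 6 of the 8 genes (44.8% of all), with a median of 0.33 against -0.05.

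Marker genes of other cell types also differed at day 7. The deletion line's day 7 array was above the full-length line's in 8 of 8 pluripotency markers (summed signal 105000 against 82500) and 8 of 8 extraembryonic endoderm markers (4920 against 1610). It was below in 7 of 8 trophoblast markers (17700 against 41600) and above in 7 of 10 fibroblast markers (5480 against 4620). Of 7 measured blood and myeloid markers it was above in 1 and below in 5 (1190 against 1750 over all 8). On the day 4 and day 7 arrays of both lines the brightest trophoblast markers were Krt18 and Krt8, and most of the summed trophoblast signal there was theirs. At day 7 Krt18 lay at 12.92 in the deletion line against 14.22, and Krt8 at 12.70 against 14.17. Over all 6 arrays the summed signals ran from 86600 to 111000 in the deletion line and from 75600 to 134000 in the full-length line for pluripotency, and from 3680 to 24600 and from 4230 to 10300 for fibroblasts. They ran from 712 to 4920 in the deletion line and from 671 to 2510 in the full-length line for extraembryonic endoderm, and from 3820 to 17700 and from 4040 to 41600 for trophoblast. Their part in the differences of the p53 target genes was not tested, and in bulk RNA a change in the share of cells and a change per cell cannot be told apart.

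A wider list of 45 p53 targets had 39 measured genes. Of these 12 (30.8%) were higher at day 7 than at day 4 in the deletion line and lower in the full-length line, and 5 (12.8%) the reverse, against 18.3% and 22.0% of all measured genes, with a median gap of 0.23 against -0.05 over all genes. Those 12, named after their values were seen, were Sesn2, Aen, Plk2, Pidd1, Btg2, Eda2r, Sfn, Ak1, Ppm1d, Steap3, Trp73 and Rb1cc1. They were counted by sign alone, whatever the size. Ppm1d had log2 differences of 0.09 in the deletion line and -0.14 in the full-length line, and Aen 0.14 and -0.20. Trp73 lay at the floor on the full-length line's day 7 array. Plk2, a polo-like kinase gene, had log2 differences of 0.66 in the deletion line and -0.40 in the full-length line, and Sfn, which encodes the cell cycle brake 14-3-3 sigma, 0.67 and -0.60. Pidd1, a gene of the caspase-2 activating complex, had 0.10 and -1.04. The list did not move as 1. Sesn1 encodes a stress-induced sestrin and Ddb2 a DNA damage sensor, and both, with Gadd45a, were also named after their values were seen. Between days 7 and 4 the log2 differences of Sesn1, Ddb2 and Gadd45a were 0.30, -0.38 and -0.01 in the deletion line. In the full-length line they were 0.48, 1.02 and 0.98. On the day 7 arrays alone these genes were lower in the deletion line, with line differences of -0.52, -0.68 and -0.47.

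In the fit over both lines, 1 of the 39 wider targets was called in any comparison, for day 4 over day 0, where 1.58% of all measured genes were called, so the count is near that of all genes. Ptpn14, a phosphatase gene that restrains YAP, rose at day 4 (limma, log2 1.67, SE 0.30, adjusted p = 0.045), with levels of 8.01, 9.15 and 8.66 in the deletion line, and 8.56, 10.75 and 9.55 in the full-length line. Its call was lost with dim genes kept in the fit and with any 1 of the 4 day 0 and day 4 arrays left out, where 0 genes were called for day 4 over day 0. Whether the Ptpn14 call held under the other alternatives was not examined. Tap1, a peptide transporter gene of antigen presentation, had a log2 difference of 1.28 between days 4 and 0 (limma adjusted p = 0.12). The epoxide hydrolase gene Ephx1 had -1.15 (limma adjusted p = 0.090). Rb1cc1, an autophagy gene, was higher in the deletion line at all 3 days, with a line difference of 1.27 that was not called (limma adjusted p = 0.25).

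**Figure D4:**
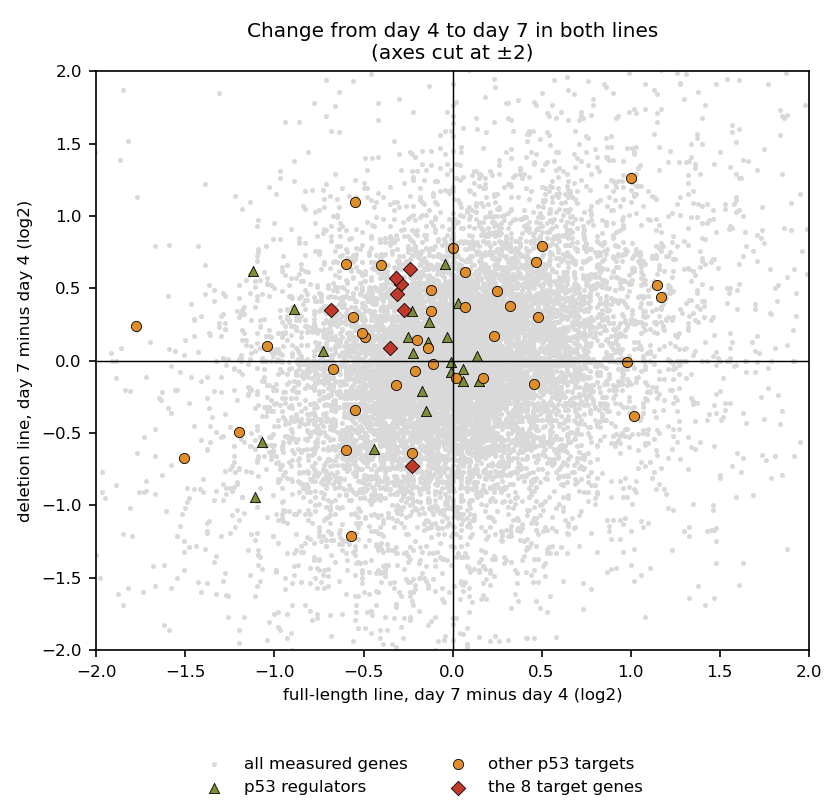
Log2 difference between days 7 and 4 in the deletion line (vertical) against the full-length line (horizontal) for all measured genes (grey), 22 p53 regulators, 39 other p53 targets and the 8 target genes; 287 genes lie outside the axes at 2. Of the 8 target genes, 7 lie in the upper left part of the plot, which holds 18.3% of all measured genes.

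Genes that act on p53 were called in 0 of 22 cases in each comparison of the limma fit. Of the 22, 10 (45.5%) were higher at day 7 than at day 4 in the deletion line and lower in the full-length line, and 3 (13.6%) the reverse, against 18.3% and 22.0% of all measured genes. Mdm4, which encodes the MDM2 partner that masks p53, had levels of 10.56, 10.17 and 10.20 in the deletion line, and 10.59, 9.47 and 9.61 in the full-length line, and its log2 difference between days 4 and 0 was -0.76 (limma adjusted p = 0.17). Atm, the kinase gene of the response to DNA breaks, chosen after its values were seen, had 9.16, 9.09 and 9.71 in the deletion line, and 9.35, 9.86 and 8.74 in the full-length line. Cdkn2a, which encodes the MDM2 inhibitor ARF and the kinase inhibitor p16, lay between 10.18 and 10.92 on the 6 arrays, with a log2 difference of 0.52 between days 4 and 0 (limma adjusted p = 0.25).

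Genes that p53 lowers through p21 and the DREAM repressor gave 0 calls of 19 in each comparison. At day 7 against day 4, 4 of the 19 (21.1%) were higher in the deletion line and lower in the full-length line and 4 (21.1%) the reverse, both near the 18.3% and 22.0% of all measured genes. Mybl2, a B-MYB gene of S phase, had levels of 12.14, 11.89 and 12.04 in the deletion line, and 12.37, 10.82 and 11.38 in the full-length line. Mcm5, a replicative helicase gene, had 14.27, 13.98 and 13.70 in the deletion line, and 14.26, 13.80 and 13.54 in the full-length line, lower at each later day in both.

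Partners of the death genes in the BCL-2 family and the caspases also gave 0 calls of 16, with a median log2 difference of 0.22 between days 4 and 0 against 0.05 over all genes. Bik, a BH3-only death gene, had levels of 7.14, 7.79 and 8.34 in the deletion line, and 7.11, 7.81 and 8.33 in the full-length line, nearly the same in both lines at each day (day 7 over day 0 log2 1.21, SE 0.30, limma adjusted p = 0.11). The survival gene Bcl2 had 5.78, 6.87 and 5.59 in the deletion line, and 5.93, 7.01 and 6.86 in the full-length line.

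Among 16 other inhibitors and partners of the G1 kinases, 0 were called. Cdkn1c, an imprinted gene that encodes the p21 relative p57, had levels of 8.40, 8.51 and 9.89 in the deletion line, and 8.89, 8.45 and 12.19 in the full-length line, the widest line gap of the list at day 7 and opposite in sign to that of Cdkn1a. Cdkn1b, which encodes the relative p27, had 9.66, 10.17 and 9.67 in the deletion line, and 8.98, 9.91 and 9.56 in the full-length line. Ccnd2, which encodes cyclin D2, had 11.36, 8.14 and 8.53 in the deletion line, and 10.12, 9.47 and 8.63 in the full-length line (day 7 over day 0 log2 -2.16, SE 0.51, limma adjusted p = 0.098).

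The genes whose levels most resembled those of Cdkn1a over the 6 arrays, among 4543 genes with a range of at least 1 and a mean signal at least 2 times the floor, were Sgsm2, Zbp1, Epp13, Vps13b and Gtpbp2, with Pearson's r from 0.93 to 0.96. Zbp1, which encodes a sensor of Z-form nucleic acids, had levels of 5.94, 5.37 and 7.86 in the deletion line, and 7.90, 7.32 and 6.23 in the full-length line. The deletion line's day 4 level of Zbp1 lay at the floor. Such values describe 6 arrays that share lines and days, and the lower Cdkn1a probe set has another order of the lines.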

How the data were processed

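The authors deposited 1 log2 signal per probe set and array. MAS5 is the tool named in the submitters' processing notes, with no version. The log base was inferred: after taking powers of 2, trimming 2% from both tails left array means of 496.7 to 496.9, so a level is relative to its array's mean.

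Samples were grouped by title. Signals below a floor of 41.2, the median of the arrays' 40th percentiles, were set to it. A gene took its brightest probe set named alone by the 2016 platform annotation, and was tested where its mean signal reached the floor. Differences were fitted with limma 3.58.1 in R 4.3.3, with line and day as additive factors, trended moderated variances (2 residual and 5.63 prior degrees of freedom), two-sided tests and Benjamini-Hochberg adjustment over 13277 genes at 0.05. The fit was tried on simulated data with independent noise and day 4 changes that were the same in both lines. That trial did not cover courses that differ between the lines. With no repeated arrays, p-values judge differences against the lines' departure from a shared course, noise and the variance prior. They do not measure a spread between repeated cultures, and the number of arrays limits the precision. Differences between single arrays had no test.

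The members, gene lists and tests were chosen with earlier results of these data known, and the promoter search after its letters were seen. Named genes were the 8 members, up to 4 per list and comparison with the largest absolute difference, the 5 most like Cdkn1a, and genes said to be chosen after their values were seen. Promoter sequences are from RefSeq (GRCm38.p6).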

Additional observations from a re-analysis of the deposited data

How the results depend on the processing

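Of 468 log2 differences of the 8 genes under the alternatives, 420 kept their direction and their side of the threshold, 14 (all of them Pmaip1 at day 4) lost the call, and 34, of which 0 were called, changed sign. Of the 34, 29 came with an array left out. Much of the agreement was fixed in advance. Keeping dim genes, an untrended prior, no prior, and day or line alone leave the log2 differences as they were. Only Pmaip1 at day 4 had a call to lose. For day 4 over day 0, 210 genes were called, against 18 with day alone in the model, 16 with an untrended prior, 13 with a mean over probe sets, 2 with no prior, 0 with dim genes kept and 0 to 129 with an array left out. The 8 genes then gave 0 calls instead of 1 in each of these, with the other scalings and the pseudocount, and 0 to 0 with an array left out. For day 7 over day 0, 137 genes were called, against 213 with equal medians, 83 with a pseudocount of 16 in place of the floor, 12 with day alone, 3 with a mean over probe sets or an untrended prior, 0 with no prior or dim genes kept, and 0 to 10 with an array left out. For day 7 over day 4, 2 genes were called, against 41 with equal medians, 1 with quantile normalization, the pseudocount or day alone, and 0 with a mean over probe sets, an untrended prior, no prior or any array left out. The cause was not tested. Leaving out an array leaves 1 residual degree of freedom. The labels carry no replicate numbers, but the model with line and day already sets the lines against each other within each day. With line alone in the model 0 genes were called for the line difference, as with both.

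The sign turned for the Cdkn1a line difference with a mean over probe sets (0.15) and with its dimmer probe set (0.68), for Phlda3 at day 4 over day 0 with equal medians (-0.035), and for Trp53inp1 at day 7 over day 4 with a mean over probe sets (-0.0875) and with its dimmer probe set (-0.215). With an array left out, the line difference ran from -0.50 to 0.005 for Ccng1, from -0.175 to 0.295 for Bbc3 and from -0.20 to 0.46 for Trp53inp1. Day 4 over day 0 ran from -0.5775 to 0.0675 for Cdkn1a, from -0.0525 to 0.5125 for Ccng1, from -0.325 to 0.335 for Phlda3 and from -0.225 to 0.785 for Trp53inp1. Day 7 over day 4 ran from -0.2925 to 0.6825 for Cdkn1a, from -0.295 to 0.535 for Mdm2, from -0.35 to 0.60 for Ccng1, from -0.3525 to 0.5025 for Bbc3, from -0.6075 to 0.2775 for Phlda3, from -0.445 to 0.525 for Trp53inp1 and from -0.49 to 0.23 for Perp. Day 7 over day 0 ran from -0.5475 to 0.4275 for Cdkn1a, from -0.645 to 0.185 for Mdm2, from -0.12 to 0.83 for Ccng1, from -0.6025 to 0.2825 for Phlda3 and from -0.185 to 0.825 for Trp53inp1. The count of genes higher in the deletion line and lower in the full-length line at day 7 over day 0 was 5 instead of 6 with quantile normalization, an alternative chosen after seeing the data.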
